A study of Mus musculus with 8 samples.

Results

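The peaks described here are the very wide 5hmC peaks of 4 mouse sources, namely embryonic stem cells (ESCs), fibroblasts of embryos (MEFs), the brain and the liver. They are the stretches of 5000 bp or more that the peak caller reported as 1 peak. They were chosen by their width alone, as the difference between the end and the start of a nuclear peak, and 2015 of 676809 peaks met this rule. Their number and width therefore describe the choice and are no test of it. The mark, 5-hydroxymethylcytosine (5hmC), was assayed by GLIB-Seq, in which 5hmC is tagged with a glucose that carries biotin, pulled down and sequenced, to ask where the mark lies in different cells and what happens to it when the Polycomb protein Suz12 is depleted. The ESCs were the E14 line, the MEFs came from C57BL/6 embryos of day 11 by the sample labels, with another embryonic day in the methods, and brain and liver came from C57BL/6 mice of 8 weeks. Another pair of E14 ESC libraries carried a short hairpin that targets GFP, which served as control (shGFP), or Suz12 (shSuz12), and the rule did not use these. Each of the 6 conditions has 1 library, so that no spread between replicates can be given and no difference between libraries was tested. The 95% intervals below are exact (Clopper-Pearson) and cover counting error only. A peak list holds no RNA and no read counts, so that the labelled tissues could not be checked against marker genes and the sequencing depth is unknown.

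5hmC is made from 5-methylcytosine by the TET dioxygenases, mostly at CpG dinucleotides, and is both a step on the way to demethylated DNA and a stable mark. In brain and liver it is known to lie in the bodies of genes, more in transcribed genes than in silent ones, and to be low at the start sites of active CpG-island promoters. A peak caller joins enriched windows that touch, so a very wide peak is a stretch that it read as enriched without a break for several kilobases.

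Short runs from the centres of some of the widest peaks are given as examples, each a small part of its peak. The following runs of 300 bases are the middle of the widest ESC, MEF and liver peak and of the second widest ESC peak, in Plec, which was added after its values were seen as an example with coding exons. They are given 5′ to 3′ on the plus strand of mm9, each CpG is in capitals, and they show how the CpG dinucleotides were spaced.
Gse1, ESC, chr8:123088263-123088562, in an intron: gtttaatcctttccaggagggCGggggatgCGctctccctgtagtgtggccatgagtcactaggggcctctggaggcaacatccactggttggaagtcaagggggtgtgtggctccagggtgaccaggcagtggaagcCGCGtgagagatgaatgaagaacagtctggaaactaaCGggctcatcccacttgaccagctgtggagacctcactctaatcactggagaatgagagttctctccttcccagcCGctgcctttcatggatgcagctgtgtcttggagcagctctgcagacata
Sfi1, MEF, chr11:3063281-3063580, in an intron: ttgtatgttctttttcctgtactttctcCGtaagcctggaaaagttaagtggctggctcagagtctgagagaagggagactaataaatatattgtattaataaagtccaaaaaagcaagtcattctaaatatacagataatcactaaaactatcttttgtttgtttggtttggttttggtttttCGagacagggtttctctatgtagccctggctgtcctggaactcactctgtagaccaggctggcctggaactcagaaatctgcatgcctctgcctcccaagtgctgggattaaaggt
Foxo3, liver, chr10:41908001-41908300, in an intron: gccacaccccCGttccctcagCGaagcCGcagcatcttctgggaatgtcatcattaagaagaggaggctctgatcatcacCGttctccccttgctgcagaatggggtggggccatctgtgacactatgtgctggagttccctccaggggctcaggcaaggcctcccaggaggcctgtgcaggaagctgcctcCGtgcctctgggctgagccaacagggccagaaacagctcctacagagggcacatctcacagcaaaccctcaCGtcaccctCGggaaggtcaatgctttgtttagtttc
Plec, ESC, chr15:76008609-76008908, with 207 coding bases: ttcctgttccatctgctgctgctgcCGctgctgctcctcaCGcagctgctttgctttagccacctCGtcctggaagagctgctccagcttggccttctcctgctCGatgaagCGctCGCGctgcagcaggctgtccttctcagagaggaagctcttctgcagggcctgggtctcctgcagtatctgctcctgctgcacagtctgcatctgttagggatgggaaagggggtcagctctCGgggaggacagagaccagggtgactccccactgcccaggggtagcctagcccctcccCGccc
These windows held 6 CpGs in Gse1, 2 in Sfi1, 7 in Foxo3 and 9 in Plec. The middle of the widest brain peak, in Hjurp, held 3 CpGs.

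Liver had by far the longest list of very wide peaks. There were 1165 in liver, 360 in ESCs, 334 in the brain and 156 in MEFs. This was 0.893% of all liver peaks (95% interval 0.843 to 0.946%), 0.209% of all ESC peaks (0.188 to 0.232%), 0.212% of all brain peaks (0.190 to 0.236%) and 0.0719% of all MEF peaks (0.0610 to 0.0841%). In bp the wide peaks made up 4.69% of what peaks covered in liver, 1.28% in ESCs, 1.04% in the brain and 0.471% in MEFs. The lowest score that the caller gave was 80 in the ESC and liver lists and 30 in those of MEFs and brain. These shares are therefore not of like lists. The MEF list, the longest of the 4 with 217025 peaks, thus gave the fewest wide ones. The median width of the chosen peaks was 6165 bp in liver, 5772 bp in ESCs, 5746 bp in the brain and 5644 bp in MEFs, against 1016, 844, 1063 and 817 bp over all peaks of the same lists. Most were not far over the limit, since 58.1% in ESCs, 64.7% in MEFs, 62.9% in the brain and 45.8% in liver were under 6 kb. Peaks of over 10 kb numbered 82 in liver, 12 in ESCs, 6 in MEFs and 5 in the brain. The narrowest chosen peaks were 5013, 5002, 5001 and 5002 bp wide in ESCs, MEFs, brain and liver, and the widest peaks left out were 4996, 4997, 4999 and 4997 bp wide. When peaks less than 500 bp apart were joined first, 2522 stretches of this width were found in ESCs, 2005 in MEFs, 2734 in the brain and 4788 in liver, so that the numbers depend on where the caller ends a peak, while liver kept the highest.

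**Figure D1:**
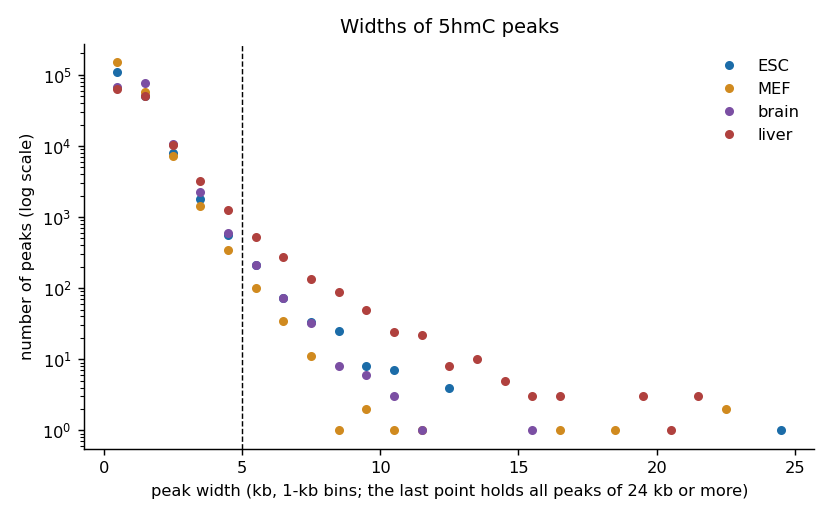
Number of 5hmC peaks (y axis, log scale) by peak width (x axis, kb, in bins of 1 kb) in the 4 libraries, with a dashed line at 5 kb and with the last bin holding every peak of 24 kb or more. In each bin from 5 to 10 kb liver lies above the others, and the single ESC point in the last bin is the peak of 38707 bp in Gse1.

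The score that the caller gave, read here as 10 times the negative log10 of a p-value, had a median of 3100 over the wide ESC peaks, 1883 in liver, 924 in MEFs and 432 in the brain. Over the other peaks of each list the median was 178, 161, 58.2 and 49.7. A score of 3100 is close to the highest of any wide peak, 3233 in ESCs and liver, so the ESC median lies near the top of the scale. Of the 360 wide ESC peaks, 194 had a score of 3100 or more, against 109 of the other 171505. The lists were not drawn at the same score, as the lowest was 80 in ESCs and liver and 30 in MEFs and brain. The lowest score of any chosen peak was 218, in the brain, so that a common minimum of 80 removed none of them. It would remove most of the other peaks of MEFs and brain, whose median scores were below 80. Wide peaks lay in stretches that were dense in peaks of the same library. Within 25 kb on each side, peaks covered a median of 48.2% of the DNA in ESCs, 46.0% in MEFs, 48.6% in the brain and 52.2% in liver. Around the other peaks this was 19.9, 16.5, 18.1 and 25.4%.

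The widest peak of all was an ESC peak of 38707 bp on chromosome 8 from 123069060 to 123107766 that ran over the last part of Gse1, which encodes a nuclear protein of co-repressor complexes, and into Gins2, a replication helicase subunit. Of its bp, 19% were exonic. Peaks covered 97.4% of it in liver, 80.5% in the brain and 76.8% in MEFs, where the widest single peaks over it were 16851, 9079 and 6555 bp. In the other ESC libraries they covered 95.9% in shGFP and 72.2% in shSuz12, as 6 and 28 separate peaks. The stretch was thus enriched in all 6 libraries, and the libraries differed in how far it was broken up. The same place also lies inside Gm20388, a protein-coding model of 4.43 Mb that spans many other genes, so that the rule for naming genes gives this peak to Gm20388. The next ESC peak, of 12856 bp, lay in Plec, the gene of the cytoskeletal linker plectin, on chromosome 15 from 76002331 to 76015186, and 82.8% of it was exon, with 51.4 CpG per kb. In MEFs peaks covered 17.3% of this stretch, against 85.8% in the brain and 93.9% in liver. Pold1, the catalytic subunit of DNA polymerase delta, held an ESC peak of 12300 bp that touched 22 exons. Peaks covered 10.7% of it in MEFs, 38.7% in the brain and 25.1% in liver, but 84.6% in shGFP and 64.7% in shSuz12. Jak3, a kinase of cytokine receptors, had the same pattern. Its ESC peak of 10725 bp was covered to 8.42% in MEFs, 9.05% in the brain and 48.1% in liver, and to 96.5% in shGFP and 66.1% in shSuz12. Fasn, the fatty acid synthase, held an ESC peak of 10877 bp that touched 30 exons and a liver peak of 11663 bp. The other ESC peaks among the 10 widest lay in Sfi1, in Mtss1 and in a further part of Gm20388.

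**Figure D2:**
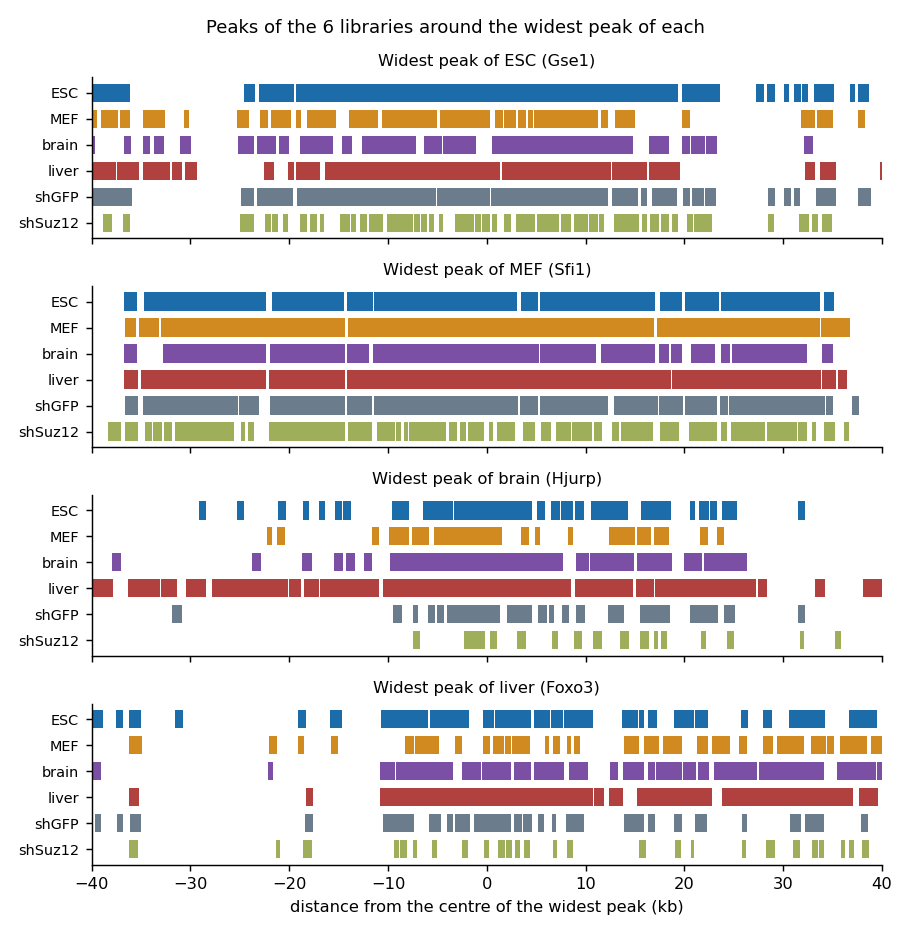
Peaks of the 6 libraries (rows, 1 bar per peak) within 40 kb on each side of the centre of the widest peak of ESCs, MEFs, brain and liver (x axis, distance from that centre in kb). Around the Gse1 centre the ESC peak of 38707 bp stands against 28 separate shSuz12 peaks in the same stretch, and at Sfi1 peaks cover at least 78.6% of the MEF peak in every library.

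In MEFs the widest peaks were 3 neighbours in Sfi1, a gene of a centrin-binding spindle protein, of 22973, 18604 and 16457 bp, and 1 of 22357 bp at the end of Mid1. Mid1 encodes a ubiquitin ligase and spans the pseudoautosomal boundary of the X chromosome in laboratory mice. The Sfi1 peak of 22973 bp had 7.84 CpG per kb, and of the 31-base words sampled along it every 25 bp, 9.69% occurred more than once in the genome. Copies within the same peak count here as well. In the Mid1 peak the share of such words was 24.8%, and in an ESC peak of 12371 bp at the end of Sfi1 it was 32.2%. Over all wide peaks it was 2.26% in ESCs, 3.12% in MEFs, 1.86% in the brain and 2.76% in liver. The part that repeated sequence had in the width of these peaks was not tested. Septin 9 (Sept9), a filament-forming GTPase, held a peak of 11155 bp. Mtss1, a scaffold of actin and membranes, held 1 of 10400 bp. Kctd10, an adaptor of a ubiquitin ligase, Zmiz1, a transcriptional co-activator, and Trio, an exchange factor of small GTPases, held peaks of 9287, 8960 and 7999 bp. The Zmiz1 peak lay close to the gene's start, at 9.36% of its length, and was covered to 27.1% in ESCs, to 0% in shGFP and to 5.55% in shSuz12, against 83.4% in the brain and 75.8% in liver.

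The widest brain peak, of 15465 bp, covered the last part of Hjurp, the chaperone of the centromeric histone, and a neighbouring gene, Heatr7b1. It was followed by a peak of 11769 bp in Agrn, which encodes the synaptic proteoglycan agrin. The Agrn peak touched 29 exons, was covered to 89.6% in ESCs and to 34.0% in liver, and was not met by any MEF peak. A peak of 10200 bp lay in the first part of Eif2c2, the gene of Argonaute 2, and held no exon. Chd7, a chromatin remodeller, held a peak of 10012 bp that was covered to 73.1% in MEFs, 58.3% in liver and 32.2% in ESCs. A peak of 9632 bp at the end of Bpgm, bisphosphoglycerate mutase, was not met by any liver peak. Cdc42bpb, a kinase that binds Cdc42, held 1 of 9977 bp that a liver peak of 10891 bp covered whole. The remaining brain peaks of the 10 widest lay in Sfi1, Rgl1, D8Ertd82e and Lemd2. That of D8Ertd82e was 75.4% exon, in a single exon, and was covered to 7.27% in liver.

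In liver the widest peaks were nearly equal in width. Foxo3, a forkhead factor of fasting and stress responses, held a peak of 21566 bp on chromosome 10 from 41897368 to 41918933 that ran past the gene's end. Spen, a transcriptional repressor, held 1 of 21017 bp, and Lnx2, a ubiquitin ligase, 1 of 20811 bp. The Spen peak ran past the gene's end and into Zbtb17, and exons of protein-coding genes made up 64.8% of it. Peaks of the other tissues also lay in these stretches, but in pieces. The Foxo3 stretch was covered to 89.0% in ESCs by 8 peaks, to 88.2% in the brain by 7 and to 49.8% in MEFs by 12. The Lnx2 stretch was covered to 77.6, 84.5 and 72.2% in ESCs, brain and MEFs. Other liver peaks among the 10 widest lay in Sfi1, at the end of Sept9 (19405 bp), in Hjurp (19060 bp), in Gse1 (16851 bp), in Pqlc1 (16699 bp) and in Klf3, a repressor of the Krüppel-like family (16628 bp).

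Very wide peaks lay in genes. The midpoint was inside a protein-coding gene for 93.6% of the ESC peaks (95% interval 90.6 to 95.9%), for 85.3% in MEFs (78.7 to 90.4%), 93.4% in the brain (90.2 to 95.8%) and 91.5% in liver (89.8 to 93.0%). Of the other peaks this held for 62.1, 55.0, 68.3 and 71.6%, and protein-coding genes take up 37.5% of the genome. Without the long model Gm20388 the shares were 91.4, 82.7, 93.1 and 91.2%. Exons made up 27.7% of the bp of wide peaks in ESCs, 7.21% in MEFs, 15.2% in the brain and 18.4% in liver. In the other peaks they made up 11.2, 5.08, 8.54 and 9.68%, and in the genome 2.90%. ESCs and MEFs thus lay at the ends of the order. Coding sequence alone was 18% of the bp in ESCs and 3.48% in MEFs, and 74 of the 360 wide ESC peaks touched 10 exons or more, against 4 of the 156 in MEFs. The share of wide peaks with no exonic base was 21.4% in ESCs, 59.0% in MEFs, 41.3% in the brain and 30.6% in liver. The genes that held them were long in MEFs and brain, with a median of 111 and 83.1 kb, and shorter in ESCs and liver, with 32.5 and 35.5 kb, whereas the median over all protein-coding genes was 15.4 kb.

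Within genes the wide peaks leaned to the 3′ end in ESCs, brain and liver. When each gene was cut into 4 equal lengths, the last held 44.1% of the pairs of wide peak and gene in ESCs, 32.4% in MEFs, 34.8% in the brain and 39.0% in liver, and the first held 13.1, 22.3, 20 and 16.6%. In MEFs the second length held 30.2% and the third 15.1%, so that the first 2 lengths together held more than the last 2, and the median midpoint lay at 44.9% of the gene, against 69.4% in ESCs, 57.2% in the brain and 63.8% in liver. For the other peaks the last length held 28.5, 25, 28.6 and 25.9%. Without Gm20388 the last length held 46.4, 33.3, 34.6 and 39.2%. The ends and the starts of genes can be set against each other, since there is 1 of each per gene. Wide ESC peaks covered 134 gene ends and 24 starts, MEF peaks 18 and 2, brain peaks 52 and 8, and liver peaks 468 and 53. This gave 5.58 ends per start in ESCs, 9.0 in MEFs, 6.50 in the brain and 8.83 in liver. Among the other peaks it gave 1.5, 1.68, 3.41 and 3.67. Counted by peak, 26.7% of the wide ESC peaks (22.2 to 31.6%), 10.3% in MEFs (5.98 to 16.1%), 11.4% in the brain (8.18 to 15.3%) and 29.2% in liver (26.6 to 31.9%) ran over a gene end, and 6.67% (4.32 to 9.76%), 1.28% (0.156 to 4.55%), 2.40% (1.04 to 4.66%) and 4.46% (3.35 to 5.81%) ran over a start. A wider peak meets more ends and more starts by its width, so it is the ratio and not the share that sets the wide peaks apart from the others. The bp within 1 kb of a start made up 2.46% of the wide peaks in ESCs, 0.420% in MEFs, 0.702% in the brain and 1.59% in liver. All 4 were below the 3.18, 2.05, 1.48 and 2.57% of the other peaks, and those of MEFs and brain were below the 1.59% of the genome.

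**Figure D3:**
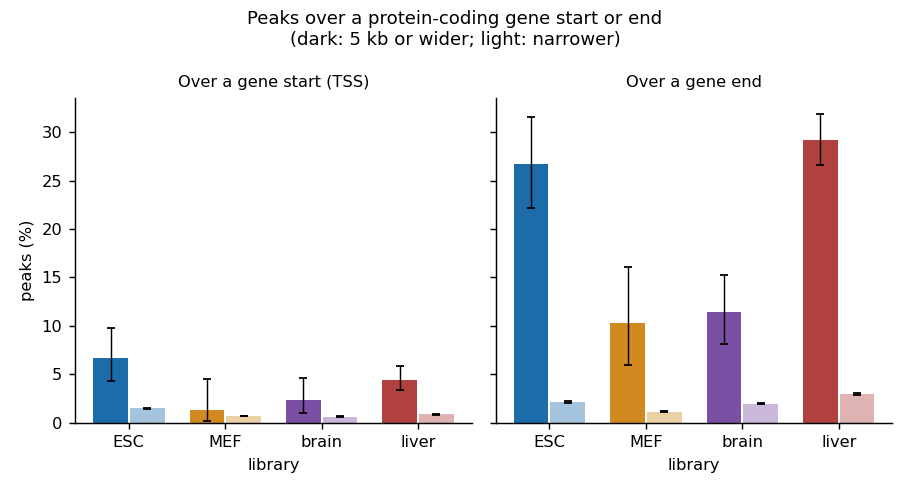
Percentage of peaks (y axis) that run over a protein-coding gene start or gene end in each library, for peaks of 5 kb or more (dark bars) and narrower peaks (light bars), with exact 95% intervals. Of the wide peaks, 26.7% in ESCs and 29.2% in liver ran over a gene end, and 6.67% and 4.46% over a start.

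Wide peaks were richer in CpG than the rest of their lists. They held 22.7 CpG per kb in ESCs, 18.3 in MEFs, 18.9 in the brain and 17.7 in liver. The other peaks held 18.4, 15.4, 15.5 and 14.5, and the genome 8.34. The median of single wide ESC peaks was 21.7 CpG per kb, with a range from 8.49 to 52.9. The G and C content was 54.4, 49.5, 50.2 and 50.5% in ESCs, MEFs, brain and liver, against 49.6, 46.4, 47.2 and 46.8% in the other peaks. The ratio of observed to expected CpG, 0.307, 0.30, 0.30 and 0.278, was close to the 0.299, 0.286, 0.278 and 0.266 of the other peaks.

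Of 22367 protein-coding genes, 294 held the midpoint of a wide peak in ESCs (1.31%), 112 in MEFs (0.501%), 245 in the brain (1.10%) and 775 in liver (3.46%). In all, 1129 genes held at least 1, and 901 of them in 1 library only. These percentages are what any gene list has to be read against, and since long genes hold more peaks, the wide peaks per Mb of gene are given as well. The lists were chosen with earlier results of these data known. Of 132 hepatocyte genes, 21 held a wide peak in liver (15.9%), 1 in ESCs, 0 in MEFs and 0 in the brain. The liver peaks amounted to 5.82 per Mb of these genes, against 1.11 per Mb over all protein-coding genes. Fasn held the widest, of 11663 bp. Ppara, the nuclear receptor of fatty acid breakdown, held a liver peak of 8940 bp, and its widest ESC, MEF and brain peaks were 1322, 656 and 1226 bp. Abcc2, a canalicular transporter, held 1 of 8384 bp in liver, and its widest peak was 1617, 1445 and 1808 bp in ESCs, MEFs and brain. Pzp, a plasma protease inhibitor, held 1 of 8126 bp in liver, and 787, 1047 and 1350 bp were the widest in ESCs, MEFs and brain. In all of these but Fasn, the wide peak was found in liver alone. Nr5a2, which stands on the pluripotency list and on the hepatocyte list, held 2 wide peaks in liver and none in ESCs. It was the only one of 40 pluripotency and 5hmC enzyme genes that held any wide peak in these 4 libraries, and these genes were short, with a median of 10.3 kb.

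Chromatin and transcription co-regulators held wide peaks in all 4 libraries, with 6 of 109 in ESCs, 4 in MEFs, 11 in the brain and 19 in liver. Per Mb of gene this was 0.663, 0.497, 1.57 and 3.23, against 0.361, 0.137, 0.325 and 1.11 over all genes. Chd7 held 5 in the brain and 4 in liver and none in ESCs or MEFs. Tle3, a Groucho co-repressor, held 4 in the brain and 1 in liver. Among 96 genes of Wnt, Notch, FGF, TGF-beta and Hedgehog signalling, 4 held wide peaks in ESCs, 6 in MEFs, 8 in the brain and 12 in liver, at 0.724, 0.965, 1.21 and 2.65 per Mb. Those in MEFs included Tgfbr3, a TGF-beta co-receptor, with a peak of 6775 bp, and the inhibitory Smads Smad7 and Smad6, with 6120 and 5795 bp. Smad7 and Smad6 also held wide peaks in liver, of up to 9890 and 6672 bp, whereas Tgfbr3 held none outside MEFs. Smad3, which carries the TGF-beta signal to the nucleus, held peaks of up to 6488 bp in the brain and 11906 bp in liver, where ESCs and MEFs had none over 2212 and 4139 bp. Ski, which represses Smad targets, held 2, 2, 2 and 5 wide peaks in ESCs, MEFs, brain and liver. Matrix and cytoskeleton genes were 6, 6, 3 and 11 of 101, at 0.970, 0.647, 0.539 and 2.37 per Mb. In MEFs these included the growth factor receptor gene Pdgfrb (6203 bp) and Cald1, caldesmon (5755 bp), neither of which held a wide peak in the other 3. Pxn (5960 bp), Col27a1 (5376 bp) and Plec (5071 bp) were also wide in MEFs, but each held a wide peak in liver too. Pxn and Plec held wide peaks in ESCs as well. In liver the genes of this list with wide peaks included Fn1, fibronectin, with 3, and Myh9, non-muscle myosin, with 2. Of 108 developmental transcription factor genes, 4, 3, 2 and 8 held a wide peak in ESCs, MEFs, brain and liver, at 0.617, 0.514, 0.206 and 1.13 per Mb, so that the brain value was below that over all genes and the liver value near it, and Zfhx3 held 3 in ESCs and 3 in MEFs.

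Genes of neuronal adhesion and synapses held few wide peaks for their length, even in the brain. They were 3 of 102 in the brain (2.94%, against 1.10% of all genes), 4 in ESCs (3.92%, against 1.31%), 0 in MEFs and 0 in liver, and their median length was 185 kb. Per Mb of gene this was 0.0876 in the brain, against 0.325 over all genes, and 0.146 in ESCs, against 0.361. The brain genes were Cacna1c, a calcium channel, with 5921 bp, Ank2, an ankyrin, with 5389 bp, and Bsn, a presynaptic scaffold, with 5141 bp. In ESCs they were Bsn (7369 bp), Dlgap4, Nrxn2 and Dlgap3. Peaks covered 30.9% of Cacna1c in the brain, against 8.25% in ESCs, 25.5% in MEFs and 1.82% in liver. Of its peaks, 1 was over the limit in the brain and none elsewhere. Ank2 was also covered more in the brain than in ESCs, to 19.6 against 2.58%. The others named here were covered less in the brain than in ESCs. Their coverage was 18.8 against 37.7% for Bsn and 33.5 against 53.1% for Dlgap4. For Nrxn2 it was 37.7 against 49.4%, and for Dlgap3 1.52 against 41.6%.

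Some genes held wide peaks in series. After Gm20388, with 31 in ESCs and 23 in liver, the genes with the most included Foxn3, a forkhead repressor, with 12 in liver, 4933407C03Rik with 9 in liver, Trak1, an adaptor of mitochondrial transport, with 8 in liver, and Sfi1 with 7 in the brain. Foxn3 was covered by peaks to 79.1% in liver, 59.9% in the brain, 49.7% in MEFs and 34.9% in ESCs, and it held 3 wide peaks in the brain and none in MEFs or ESCs. In brain AI480653 held 6 and Fto, an RNA demethylase, 4. AI480653 was covered to 64.4% in the brain, and held no wide peak in the other 3, where 57.6% of it was covered in liver, 39.0% in ESCs and 32.1% in MEFs. In MEFs Hmga2, an architectural chromatin protein of embryonic mesenchyme, held 3. Peaks covered 77.8% of Hmga2 in MEFs, 34.0% in ESCs, 17.5% in the brain and 4.97% in liver. In ESCs Galnt2, a glycosyltransferase, held 5 and Fam38a, the mechanosensitive channel Piezo1, 4. Both genes lie along Gm20388, so that their peaks are also counted among its 31. Peaks covered 83.0% of Fam38a in ESCs and between 29.3 and 37.2% in the other 3.

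Chromosome 8 stood out in ESCs. It held 98 of the 360 wide ESC peaks, 27.2% (95% interval 22.7 to 32.1%), which was 5.49 times its share of the genome and 3.08 times its share of the ESC peaks. In MEFs it held 17 wide peaks, in the brain 25 and in liver 83, at 2.20, 1.51 and 1.44 times its share of the genome. The ESC peaks included 31 in Gm20388, near the far end of the chromosome, and 67 outside it. Per 1000 peaks, chromosome 8 gave 6.44 wide ESC peaks, and the next autosome in ESCs, chromosome 11, gave 3.35. In shGFP, a library of the same cell line that was not used in the choice, 24 of 56 peaks of this width lay on chromosome 8, 8.64 times its share of the genome. In shSuz12 there were 4 such peaks in all, 2 on chromosome 11 and 2 on the X chromosome. In liver the wide peaks per 1000 peaks ran over the autosomes from 4.16 on chromosome 3 to 13.2 on chromosome 15, and chromosome 8 gave 11.4. When the 100 widest peaks of each library were used, chromosome 8 was at 5.24, 1.81, 2.62 and 0.806 times its share of the genome in ESCs, MEFs, the brain and the liver. In liver the value was thus below 1 for the 100 widest, though it was 1.30 with a limit of 7500 bp. The sex chromosomes held few peaks of any width, with 328, 757, 22 and 104 on the X chromosome and 17, 14, 16 and 15 on the Y chromosome in ESCs, MEFs, brain and liver. The X chromosome held 1 wide peak in each library, always at Mid1.

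**Figure D4:**
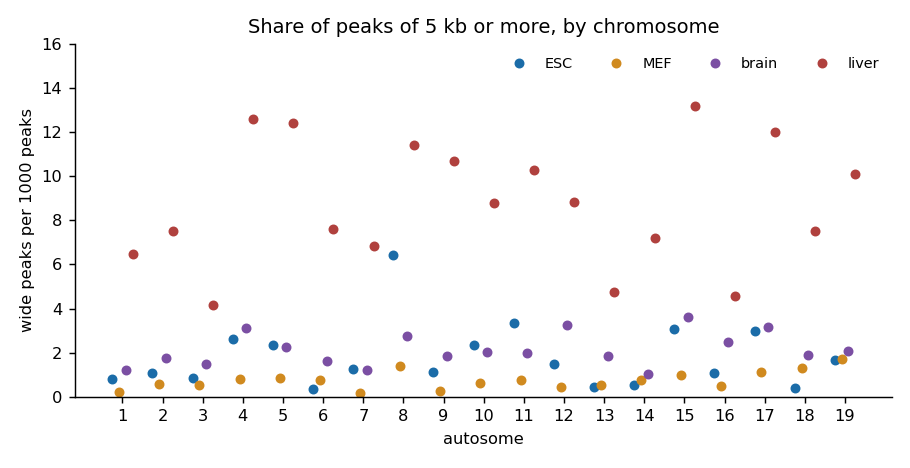
Number of peaks of 5 kb or more per 1000 peaks of the same library (y axis) on each autosome (x axis), with 1 point per library. Chromosome 8 gives 6.44 in ESCs against 3.35 on chromosome 11, and liver lies above the other libraries on every autosome. The lowest score in the lists was 80 in ESCs and liver and 30 in MEFs and brain.

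Most wide peaks were wide in 1 library only. Joined over the 4 libraries they formed 1742 loci, of which 1536 (88.2%) had a wide peak in 1 library, 174 in 2, 25 in 3 and 7 in all 4. Of the 1536 loci, 977 were of liver, which had the longest list of wide peaks. As width chose the peaks in each library, this is a description, and no such share was computed for all peaks. Among the loci of exactly 2 libraries, 67 were of ESCs and liver and 55 of brain and liver, while 8 were of MEFs and brain and 8 of ESCs and MEFs. Of the wide peaks, 33.9% in ESCs, 37.2% in MEFs, 33.2% in the brain and 16.1% in liver met a wide peak of at least 1 of the other 3. With peaks less than 500 bp apart joined, the ESC share was 50.8%, so it depends on where the caller ends a peak. As a share of each list, 28.3% of the wide ESC peaks met a wide liver peak (23.7 to 33.3%) and 8.76% of the wide liver peaks met a wide ESC peak (7.2 to 10.5%). Of the wide brain peaks 27.2% met a wide liver peak, and of the wide liver peaks 7.47% met a wide brain peak. Between MEFs and ESCs the shares were 14.7% of the MEF peaks and 6.39% of the ESC peaks.

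The 7 loci wide in all 4 libraries lay at Gse1, at both parts of Sfi1, at Hjurp with Heatr7b1, at Mid1, at Mtss1 and at Snx18. Of these, the pair at Sfi1 and the one at Mid1 are those with repeated sequence described above. At Mtss1 the widest peak was 10952, 10400, 7314 and 5020 bp in ESCs, MEFs, the brain and the liver, and 3397 and 2537 bp in shGFP and shSuz12. The ESC peak lay in an intron with no exonic base and 20.6 CpG per kb. At Snx18, which encodes a sorting nexin, they were 5523, 5777, 7069 and 7482 bp, and 3324 and 881 bp in shGFP and shSuz12. At Hjurp they were 7941, 6877, 15465 and 19060 bp. In all, 15 genes held a wide peak in each of the 4 libraries, though not always at the same place. Beside those of the shared loci they included Anks1, Galnt2, H2afy, Plec, Ski and Zfand3. Drg1, which the shared locus at Sfi1 also covers, and the long model Gm20388, which spans Gse1 and overlaps Galnt2, were among the 15 as well. H2afy, the gene of the histone variant macroH2A1, had widest peaks of 5023, 5027, 5618 and 6064 bp.

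A place with a very wide peak in 1 library was seldom empty in the others. Peaks of any width were found in all other 3 libraries at 77.8% of the wide ESC peaks, 78.2% in MEFs, 82.0% in the brain and 85.8% in liver, and 3, 0, 1 and 1 wide peaks, respectively, met none. Wide peaks meet more peaks by their width, so the bp covered is the fairer measure. Brain peaks covered 68.4% of the bp of wide ESC peaks and 39.4% of the other ESC peaks. For liver peaks these values were 62.2 and 34.7%, and for MEF peaks 50.1 and 38.9%. Of the bp of wide MEF peaks, 64.6% were covered in ESCs, 68.4% in the brain and 61.6% in liver, against 33.5, 34.7 and 26.7% for the other MEF peaks. The bp of wide brain peaks were covered to 60.9, 56.6 and 64.8% in ESCs, MEFs and liver, and those of wide liver peaks to 57.9, 42.9 and 59.9% in ESCs, MEFs and brain. In each of these 12 pairings the wide peaks were covered more than the narrower ones, by 1.29 times (ESC peaks in MEFs) to 2.31 times (MEF peaks in liver).

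**Figure D5:**
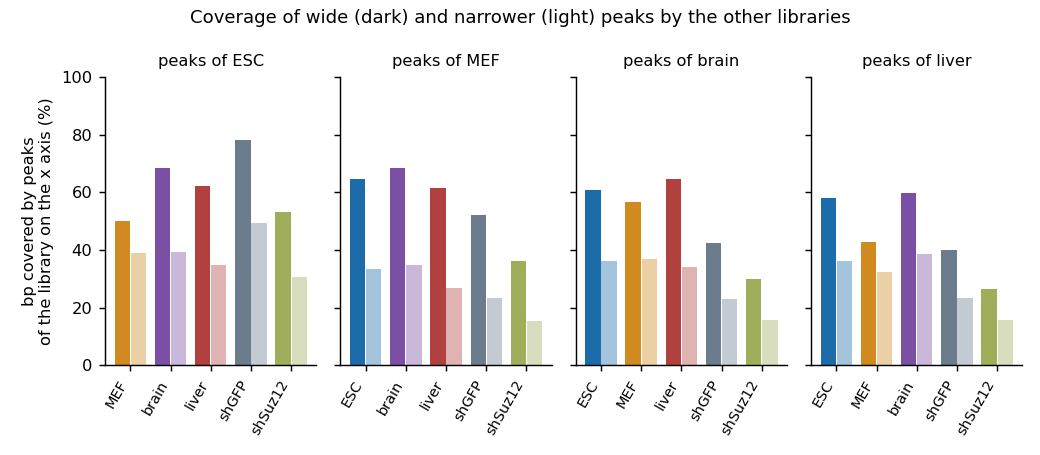
Percentage of the bp of peaks of ESCs, MEFs, brain and liver (panels) that is covered by peaks of each other library (x axis), for peaks of 5 kb or more (dark bars) and narrower peaks (light bars). The dark bar is the higher in every pair, for example 78.2 against 49.3% for ESC peaks in shGFP.

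The shGFP and shSuz12 libraries are of the same line as the ESC library and were not used in the choice. Every wide ESC peak met a peak in both, but wide peaks meet more peaks by their width. No such share is given for the other ESC peaks, so the bp covered is the fairer measure here too. In shGFP, peaks covered 78.2% of the bp of wide ESC peaks and 49.3% of the other ESC peaks, and in shSuz12 53.0 and 30.6%. A peak of 5 kb or more was met in shGFP by 37 of the 360 (10.3%, 7.34 to 13.9%) and in shSuz12 by 3 (0.833%, 0.172 to 2.42%). These shares are limited by the lists, as shGFP held 56 peaks of this width in all and shSuz12 held 4. Over the wide ESC peaks the median number of peaks was 3 in shGFP and 4 in shSuz12, and the median width of the widest of them was 2735 and 1191 bp. Coverage was lower in shSuz12 than in shGFP at 342 of the 360 places and higher at 17, and of the other 171505 ESC peaks it was lower at 86205, higher at 32737 and equal at 52563. The coverage of wide ESC peaks in shSuz12 was 0.678 times that in shGFP, that of the other ESC peaks 0.620 times, and that of the whole list, 3.15 against 4.56% of the genome, 0.689 times. With each list at its own lowest score, the fall at the wide peaks was thus near that of the whole list. Outside Gm20388 it was 0.674 times over 329 wide peaks. The shGFP list began at a score of 50 and the shSuz12 list at 30.3, and with a common minimum of 80 the wide ESC peaks were covered to 74.3 and 31.6%. The other ESC peaks and the whole list were not recomputed at that minimum, so the falls cannot be compared there. The parts that depth and threshold had in the difference between shGFP and shSuz12 were not tested. With 1 library of each kind a difference between libraries and an effect of the hairpin cannot be told apart.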

How the data were processed

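GLIB-Seq peak lists of 5hmC were used for 6 libraries, 1 each of ESCs, MEFs, brain, liver, shGFP ESCs and shSuz12 ESCs. RNA-Seq of the shGFP and shSuz12 cells was not analysed here. The authors mapped reads to mm9 with Bowtie 0.12.7, kept unique hits and called peaks with MACS 1.4.1 in each library, after CASAVA 1.8, as the paper and the submitters' processing notes name them. The deposited files give the position of each peak and a score from MACS. Controls and thresholds of the lists are not given in the sources used here.

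Genes came from the GENCODE annotation of NCBIM37 (the assembly of mm9), with 22367 protein-coding genes, and 4 mitochondrial peaks were left out. A peak met another at an overlap of 1 bp or more. The share of 31-base words that occur more than once in the genome was read from words every 25 bp. The members and gene lists were chosen with earlier results of these data known. Genes named are those at the 10 widest peaks of each library, the 5 with the most wide peaks, the loci wide in all 4 libraries and up to 4 members of each list with the widest peaks. Some genes that this rule names are not reported here. No test was run, as each condition has 1 library. The alternatives were width limits of 4000 and 7500 bp, a common score of 80, joined peaks, the 100 widest peaks, all annotated genes and a mutual overlap of 50%. Leaving out Gm20388, chromosome 8 or the peaks over Sfi1 and Mid1 was chosen after seeing the data. Scripts ran in Python 3.11.15 with pandas 2.3.3, numpy 2.4.6 and scipy 1.17.1, figures were drawn with matplotlib 3.10.9, and the steps were tested on simulated peaks.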

Additional observations from a re-analysis of the deposited data

How the results depend on the processing

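Of 230 values recomputed under the alternatives, 145 stayed within 1.5 times the reported count or within its 95% interval, 83 moved and 2 crossed to the other side of 1, both for chromosome 8 (MEFs with a limit of 7500 bp and liver among the 100 widest). The values are given in the order ESCs, MEFs, brain and liver. With a limit of 4000 bp the numbers were 911, 504, 932 and 2417, and with 7500 bp 58, 14, 28 and 278. CpG per kb was 22.4, 17.9, 18.4 and 17.3 with the lower limit and 23.5, 17.1, 19.7 and 18.3 with the higher. With the lower limit 89.4% of ESC peaks were centred in a gene, and 40.8, 40.8 and 22.5% in ESCs, brain and liver met a wide peak of another library. With the higher limit 100% in brain and 93.5% in liver were centred in a gene, 10.3% in ESCs, 14.3% in MEFs and 7.14% in brain lay over a TSS, 22.3% of the brain bp were exonic, and 64.3, 46.4 and 8.63% in MEFs, brain and liver met a wide peak elsewhere. The mean bp covered in the other 3 was then 67.7, 83.5, 67.3 and 58.3%, coverage of ESC peaks was 83.3% in shGFP and 58.5% in shSuz12, and chromosome 8 stood at 0 (MEFs, 14 peaks) and 3.6 (brain) times its genome share.

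When peaks less than 500 bp apart were joined, the numbers were 2522, 2005, 2734 and 4788. Then 85.4, 74.3, 89.4 and 87.2% were centred in a gene, the exonic bp were 17.7, 11.3 and 13.2% in ESCs, brain and liver, and CpG per kb was 19.2, 16.1, 16.8 and 15.4. A wide peak elsewhere was met by 50.8, 48.8, 54.2 and 36.7%, the mean bp covered was 50.7, 50.4, 53.0 and 46.2%, ESC stretches were covered to 65.4% in shGFP and 43.4% in shSuz12, and chromosome 8 in ESCs stood at 4.18. Among the 100 widest peaks, CpG per kb was 23.2 in ESCs and 18.2 in liver, 96.0% of the liver peaks were centred in a gene, 25, 21.0, 21.0 and 26.0% met a wide peak elsewhere, 62.4% of the liver bp were covered, and chromosome 8 stood at 2.62 in brain and 0.806 in liver. With all annotated genes, 10.8, 5.13 and 8.50% in ESCs, MEFs and liver lay over a TSS. With a common score of 80, the mean bp covered was 51.3% in ESCs and 43.6% in liver, and 31.6% of ESC bp were covered in shSuz12. With a mutual overlap of 50%, 27.5% in brain and 12.8% in liver met a wide peak elsewhere. Without chromosome 8, CpG per kb in ESCs was 23.1, and without the peaks over Sfi1 and Mid1 it was 22.9, 18.6 and 19.1 in ESCs, MEFs and brain. These last alternatives were chosen after seeing the data, and the cause of the changes was not tested. No paired analysis was possible because there is 1 library of each kind. The lists give no depth, so that a place without a peak may be 1 that was sequenced too little.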

Other observations

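Of the wide peaks with the midpoint outside protein-coding genes, the one furthest from a protein-coding start was at the same place in MEFs, brain and liver, on chromosome 17 from 39979527 to 39986085 over the 3 libraries, and is named here after its values were seen. The MEF peak was 6387 bp wide, the brain peak 6088 bp and the liver peak 6390 bp, and the widest ESC, shGFP and shSuz12 peaks there were 4037, 6376 and 4067 bp. Its edge lay 360, 360 and 359 kb from the nearest such start, against a median for wide peaks outside genes of 58.3 kb in MEFs, 74.5 kb in brain and 12.1 kb in liver. It held 94.1, 98.2 and 94.1 CpG per kb in MEFs, brain and liver, the highest of the wide peaks of each of these libraries, and 15.3, 14.0 and 17.6% of its 31-base words occurred more than once in the genome, against 3.12, 1.86 and 2.76% over all wide peaks. Words were counted on the assembled chromosomes only, so copies missing from the assembly are not seen. The part that repeated sequence had in these peaks was not tested.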
